A study of Mus musculus with 48 samples.

Results

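The mitotic cyclins and kinases described here were 10 genes: the cyclins Ccna2, Ccnb1 and Ccnb2, the kinase Cdk1, the regulators Cdc20 and Cdc25c, the kinases Plk1, Aurka and Aurkb, and the transcription factor Foxm1. They were chosen by name as the core of the machinery that drives entry into and exit from mitosis, and were found by their GENCODE mouse symbols. All 10 were present among the 20622 genes with RNA counts and among the 16269 genes with a transcript on which ribosome-protected fragments (RPFs) were counted. Of the 10, 3 to 10 passed the filter on low counts for RPFs, depending on the comparison.

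The data came from mouse livers in which Cre, delivered with the adeno-associated virus AAV8.TBG.Cre, switched on oncogenic alleles in hepatocytes. WT mice carried no such allele, B mice carried Ctnnb1ex3/+, which yields a stabilised β-catenin, M mice carried R26-LSL-MYC, which expresses MYC from the Rosa26 locus, and BM mice carried both. Livers were taken 4 or 10 days after the virus, with 3 mice for each genotype and day, so that 24 mice gave 24 RPF and 24 cytoplasmic RNA libraries. All mice, WT included, were males of 2 to 4 months on a mixed C57BL/6 background and received the virus. The TBG promoter restricts Cre to hepatocytes, so the other cells of the liver kept their alleles unrecombined. Each library was made from lysed whole tissue, in which a smaller number of cells of a type and less RNA per cell cannot be told apart.

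Cyclins A and B bind and activate the kinase CDK1, whose activity drives cells into mitosis. The phosphatase CDC25C removes the phosphates that hold CDK1 inactive, while PLK1 and the Aurora kinases A and B direct centrosomes, spindle and chromosome attachment. CDC20 then turns on the anaphase-promoting complex (APC/C), a ubiquitin ligase that has cyclin B destroyed so that mitosis can end, and FOXM1 is a transcription factor that switches on many of these genes late in the cell cycle. Most hepatocytes of an adult liver are quiescent and these genes are known for being nearly silent there until the liver regrows.

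Library totals ranged from 9742197 to 14380713 for RPFs and from 3254141 to 6540116 for RNA, and were lowest for RNA in BM at day 10. Levels are given as CPM, counts scaled to a common library size, after scaling by the trimmed mean of M values (TMM), and translation efficiency (TE) as RPF CPM divided by RNA CPM of the same mouse. The summed RPF level of the 5 hepatocyte markers, led by Alb and Cps1, was 68651 to 78374 CPM in WT at day 4 and 33494 to 39901 CPM in BM at day 4. The 7 lists of other cell types (Kupffer, endothelial, stellate, cholangiocyte, T and B, erythroid and neutrophil) were likewise lower in every BM mouse at day 4 than in every WT mouse, for example 279 to 291 against 482 to 550 CPM for the Kupffer list, and their part in the results was not tested. In M at day 4 the hepatocyte markers, at 46798 to 59673 CPM, and the endothelial, stellate, cholangiocyte, erythroid and neutrophil lists were lower in every mouse than in every WT mouse, while the Kupffer list, at 296 to 770 CPM, and the T and B cell list, at 16.8 to 59.2 CPM, overlapped with WT. In B at day 4 the Kupffer list, at 365 to 447 CPM, and the cholangiocyte, T and B cell and neutrophil lists were lower in every mouse, while the hepatocyte markers, at 58332 to 69978 CPM, and the other 3 lists overlapped. The part of these differences in the results was not tested either. The erythroid marker Slc4a1 had no RPFs in M at day 4, and in 6 groups the neutrophil markers Mpo or Elane had none. A gene was called at an adjusted p under 0.1, from the quasi-likelihood test of edgeR adjusted by the Benjamini-Hochberg method over all genes tested.

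Stretches upstream of 3 members are shown because these members differ in TE: that of Cdk1 was not called in any comparison, that of Ccnb2 was called in M and BM at day 4, and that of Plk1 changed most in BM at day 4. Each is the 150 bases before the annotated start of the transcript used for RPFs, read 5′ to 3′ on the gene's strand from GRCm39 with GENCODE vM39. The Cdk1 stretch is chr10:69188769-69188918 (minus strand), that of Ccnb2 is chr9:70328875-70329024 (minus strand) and that of Plk1 is chr7:121758496-121758645 (plus strand). Capitals mark CCAAT boxes, and TTTGAA, a form of the cell cycle gene homology region (CHR), on either strand.
Cdk1: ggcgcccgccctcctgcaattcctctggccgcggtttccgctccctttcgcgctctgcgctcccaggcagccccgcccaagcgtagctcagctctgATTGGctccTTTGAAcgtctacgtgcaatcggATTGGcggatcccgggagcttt
Ccnb2: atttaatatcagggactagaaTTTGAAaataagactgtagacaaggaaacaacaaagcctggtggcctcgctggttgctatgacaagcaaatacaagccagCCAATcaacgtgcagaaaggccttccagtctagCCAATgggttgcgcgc
Plk1: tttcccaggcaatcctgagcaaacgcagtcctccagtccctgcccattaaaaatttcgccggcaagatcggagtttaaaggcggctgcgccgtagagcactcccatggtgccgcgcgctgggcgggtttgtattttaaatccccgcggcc
In Cdk1, TTTGAA began 45 bases before the start, between CCAAT matches at 54 and 22 bases, whereas the Plk1 stretch held no match. Over the 250 bases before the start, 5 of the 10 members held TTTGAA, against 13.9% of 16249 transcripts, and 5 of 10 held at least 2 CCAAT boxes, against 10.8%. The other CHR form searched, TTCGAA, was found in 0 of 10 members and in 1.74% of transcripts, and the E-box CACGTG in 1 of 10, Aurkb, and in 6.87% of transcripts. Cdk1, Ccnb2, Cdc25c and Aurkb held both TTTGAA and CCAAT, Cdc20 held TTTGAA alone and Aurka held CCAAT alone. Ccna2, Ccnb1, Plk1 and Foxm1 held neither, although their TE, like that of Ccnb2, was called in M and BM at day 4. None of these motifs overlap in their letters, and a match describes these bases only. Any relation of the motifs to TE was not tested.

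In WT liver at day 4 the members had few RPFs, at 0 to 39 counts per mouse. Per kilobase of the counted coding sequence, Cdk1 had the highest RPF level, 3.75 ± 1.28 CPM (SD, n = 3), and lay above every other member in all 3 mice. Aurka, Cdc20, Ccnb1, Aurkb, Ccna2 and Ccnb2 followed in that order with means of 1.16 down to 0.675 CPM per kilobase, and Plk1 stood at 0.372 ± 0.0889. From Aurka to Plk1 each gene overlapped with its neighbour in this order, while Aurka did not overlap with Ccna2 or Ccnb2. Foxm1 had 0, 2 and 1 RPF counts in the 3 WT mice, and Cdc25c had 1, 0 and 0. RNA counts differed between the members. Ccnb1 had 45, 67 and 42 RNA counts, Plk1 37, 54 and 43 and Ccna2 29, 51 and 54, although their RPF counts were 4 to 12 in deeper libraries. Cdc20, Aurka and Aurkb had 4 to 15 RNA counts beside 6 to 20 RPF counts, and Cdc25c had no RNA count in any of the 3 mice. Cdk1 was the reverse of Ccnb1, with 8, 9 and 6 RNA counts beside 39, 15 and 32 RPF counts.

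**Figure D1:**
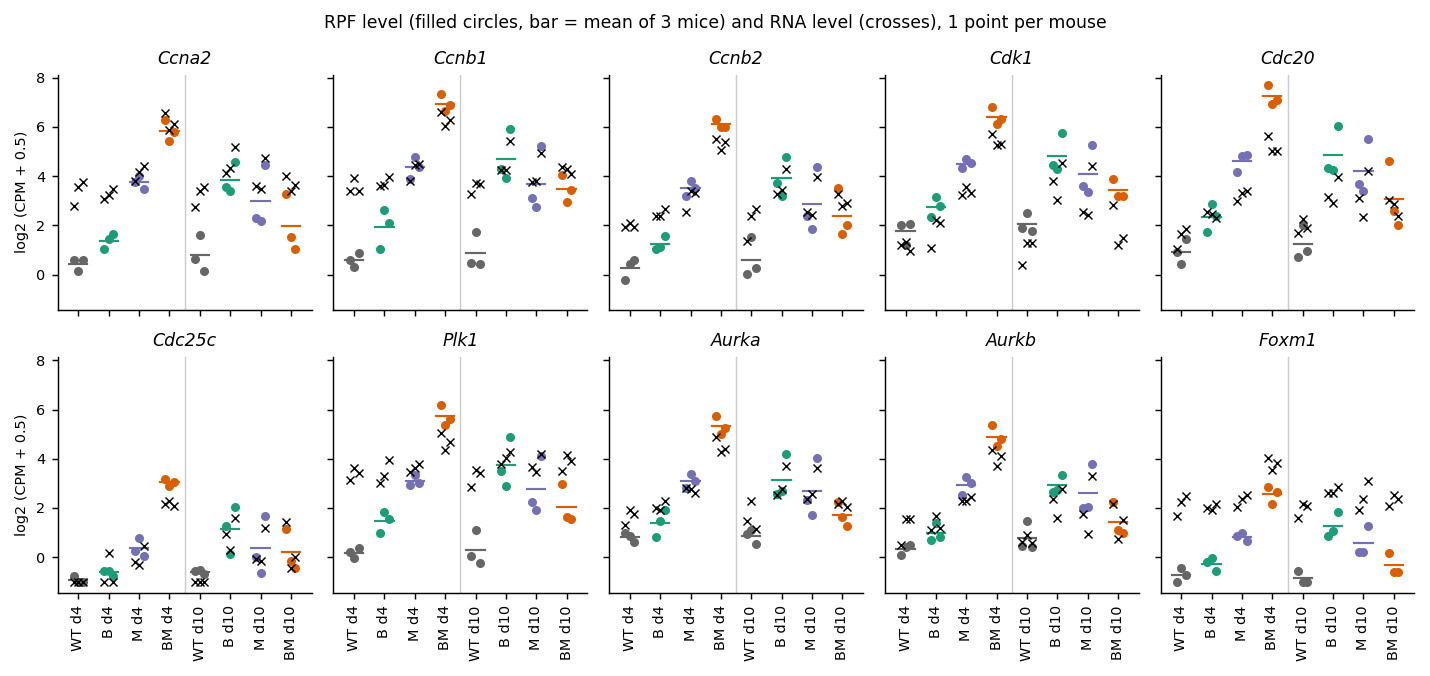
Level of each member in every mouse, as log2 of CPM plus 0.5, in 8 groups ordered by day and genotype (d4 and d10 are days 4 and 10). Circles are RPF libraries with a bar at the mean of the 3 log values, and crosses are the RNA libraries. RPFs of all 10 members are highest in BM at day 4, and in WT the circles lie well below the crosses for Ccna2, Ccnb1, Ccnb2, Plk1 and Foxm1 but not for Cdk1.

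CDK1 is the catalytic partner of the mitotic cyclins. At day 4 its RPF level was 3.59, 1.82 and 3.62 CPM in WT, 4.50, 8.30 and 6.38 CPM in B, 19.8, 25.1 and 22.4 CPM in M, and 113, 68.9 and 79.9 CPM in BM. The 4 genotypes did not overlap and stood in that order. Its RNA level was 1.78, 1.98 and 1.44 CPM in WT, 8.93, 11.3 and 9.55 CPM in M and 51.6, 37.9 and 38.8 CPM in BM. RPFs and RNA of Cdk1 therefore rose by similar amounts: in BM against WT the log2 change was 4.85 ± 0.24 (SE) for RPFs (adjusted p = 1.72e-07) and 4.60 ± 0.22 for RNA (adjusted p = 1.64e-08). The TE of Cdk1 was 2.01, 0.922 and 2.51 in WT and 2.20, 1.82 and 2.06 in BM, and these values overlapped. Its TE log2 change was 0.23 ± 0.51 in BM and 0.39 ± 0.39 in M, neither of which was called (adjusted p = 0.967 and 0.951).

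Cyclin B1 is the main mitotic partner of CDK1. The RPF level of Ccnb1 at day 4 was 1.01, 0.728 and 1.36 CPM in WT, 1.56, 5.69 and 3.74 CPM in B, 14.3, 27.1 and 20.5 CPM in M and 162, 99.0 and 117 CPM in BM. None of these groups overlapped. RNA moved far less, from 10.0, 14.7 and 10.1 CPM in WT to 13.7, 21.6 and 21.8 CPM in M, where 1 mouse lay within the WT range, and to 96.3, 65.7 and 76.8 CPM in BM. The log2 change in BM was 6.93 ± 0.25 for RPFs and 2.77 ± 0.17 for RNA. TE of Ccnb1 was 0.0495 to 0.135 in WT, 0.943 to 1.26 in M and 1.51 to 1.68 in BM, without overlap. It rose by a log2 of 3.62 ± 0.44 in M (adjusted p = 0.000401) and of 4.14 ± 0.40 in BM (adjusted p = 3.73e-05).

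Ccnb2, the second B-type cyclin, and Ccna2, the A-type cyclin that acts from DNA replication to early mitosis, also had more RPFs in M and BM than in WT. The RPF level of Ccnb2 was 0.368, 0.850 and 1.02 CPM in WT, 8.78, 13.3 and 11.1 CPM in M and 79.8, 64.0 and 63.9 CPM in BM. Ccna2 had 1.01, 0.607 and 1.02 CPM in WT, 13.2, 15.4 and 10.8 CPM in M and 78.4, 42.9 and 55.8 CPM in BM. For both genes WT, M and BM stood apart from one another. The TE log2 change of Ccnb2 was 2.69 ± 0.48 in M and 3.06 ± 0.38 in BM, and that of Ccna2 was 3.14 ± 0.40 and 3.18 ± 0.50, all called. Between M and BM, where TE of Ccnb1 was called in the fit with each mouse as a block over its RPF and RNA libraries, the log2 TE difference in that fit was 0.35 ± 0.17 for Ccnb2 (adjusted p = 0.426) and 0.02 ± 0.15 for Ccna2 (adjusted p = 0.986). The RNA of Ccna2 rose by a log2 of 0.76 ± 0.23 in M (adjusted p = 0.0384) and of 2.86 ± 0.22 in BM (adjusted p = 3.42e-07). On the annotation, 714 exonic bases of the Ccna2 transcript, none of them coding, overlap exons of Exosc9, and whether RNA reads were assigned by strand is not given in the sources used here.

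CDC20 is the activator of the APC/C in mitosis. Per kilobase its RPFs in BM at day 4, 109.9 ± 32.5 CPM, lay within the spread of those of Cdk1, 109 ± 28.9 CPM, and of Ccnb1, 105 ± 26.9 CPM. RPF counts of Cdc20 were 15, 7 and 20 in WT, 31, 74 and 56 in B, 200, 362 and 316 in M and 3385, 1856 and 2050 in BM. No group overlapped with another. RNA counts were 7, 12 and 13 in WT and 312, 186 and 180 in BM, and RNA rose by a log2 of 3.96 ± 0.26 beside 6.70 ± 0.28 for RPFs. TE of Cdc20 rose by a log2 of 2.18 ± 0.51 in M (adjusted p = 0.0676) and of 2.73 ± 0.62 in BM (adjusted p = 0.0328).

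CDC25C removes inhibitory phosphates from CDK1. Its gene, Cdc25c, had RPF counts of 1, 0 and 0 in WT, 2, 2 and 1 in B, 8, 16 and 6 in M and 139, 107 and 117 in BM at day 4. BM lay far above the other genotypes, and M above B. The ratio of summed RPF levels of BM to WT was 217, with an exact 95% interval of 38.7 to 8600 that covers counting error only, and setting every WT library at 3 counts brought it to 24.1. RNA of Cdc25c was at 0 counts in all 6 WT libraries of both days and at 25, 25 and 21 counts in BM at day 4, so that no TE could be given for WT. From M to BM, where both groups had counts, it rose by a log2 of 3.17 ± 0.25 for RPFs (adjusted p = 3.13e-05) and of 2.98 ± 0.41 for RNA (adjusted p = 0.000134).

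PLK1 acts from mitotic entry to cytokinesis. Plk1 showed the widest gap between RPFs and RNA among the members in BM. Its RPF counts were 7, 4 and 7 in WT, 16, 33 and 29 in B, 81, 127 and 84 in M and 1177, 623 and 730 in BM, with no overlap. Its RNA counts were 37, 54 and 43 in WT, 56, 79 and 60 in M and 208, 116 and 142 in BM. On the CPM scale the RNA of M overlapped with WT (log2 change 0.23 ± 0.19, adjusted p = 0.452), whereas RPFs rose by 3.68 ± 0.26 (adjusted p = 3.07e-05). TE was 0.0781, 0.0410 and 0.0767 in WT, 0.196, 0.330 and 0.165 in B, 0.668, 0.827 and 0.573 in M and 2.19, 2.03 and 1.91 in BM. The 4 genotypes thus stood in order without overlap, and TE rose by a log2 of 3.44 ± 0.34 in M (adjusted p = 7.67e-05) and of 5.00 ± 0.45 in BM (adjusted p = 2.05e-05). No annotated exon of another gene overlaps the Plk1 transcript, and all Plk1 RNA counts fell on the transcript used for RPFs.

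Aurora A serves centrosomes and the spindle poles, and Aurora B is the kinase of the chromosomal passenger complex. Aurka RPFs were 1.47, 1.33 and 1.02 CPM in WT, 1.29, 2.24 and 3.23 CPM in B, 6.49, 10.0 and 8.09 CPM in M and 53.4, 31.2 and 37.0 CPM in BM, and only WT and B overlapped. Aurkb RPFs were 0.552, 0.850 and 0.904 CPM in WT, 5.27, 9.04 and 7.54 CPM in M and 40.5, 22.3 and 27.8 CPM in BM. The RPF changes of the Aurora kinases in BM, log2 4.99 ± 0.26 and 5.33 ± 0.31, were nearer to that of Cdk1 than those of the cyclins were. Their RNA rose by 3.06 ± 0.25 and 3.11 ± 0.30. The TE of Aurka rose by a log2 of 1.92 ± 0.48 in BM (adjusted p = 0.0644), while its 1.54 ± 0.38 in M (adjusted p = 0.102) and the 2.04 ± 0.52 in M and 2.20 ± 0.62 in BM of Aurkb (adjusted p = 0.110 and 0.113) were not called. With the mouse as a block, which pairs the RPF and RNA library of a mouse, all 4 values were called (adjusted p of 0.000784 to 0.0427). Exons of Fam210b overlap 968 bases of the Aurka transcript, 358 of them coding, so that counts of the RNA of Aurka are uncertain.

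FOXM1 is the transcription factor among the members. Foxm1 had the lowest RPF level per kilobase in BM at day 4, 2.53 ± 0.646 CPM, and in M its 0.590 ± 0.0846 CPM overlapped with the 0.659 ± 0.285 CPM of Cdc25c. Its RPF counts were 0, 2 and 1 in WT, 4, 5 and 2 in B, 15, 19 and 12 in M and 111, 61 and 87 in BM. M and BM lay above WT in every mouse. The ratio of summed RPF levels to WT was 12.1 in M (exact 95% interval 3.89 to 60.8) and 51.6 in BM (17.5 to 252), and with every WT library at 3 counts it was 4.03 in M and 17.2 in BM. RNA of Foxm1 was 2.67, 4.17 and 5.04 CPM in WT, 3.61, 4.62 and 5.33 CPM in M and 15.8, 11.2 and 13.9 CPM in BM. It did not rise in M (log2 change 0.19 ± 0.30, adjusted p = 0.714) and rose by a log2 of 1.79 ± 0.24 in BM. Foxm1 was called for TE in M (adjusted p = 0.0333) and in BM (adjusted p = 0.00829), and with the WT libraries at 3 counts its TE was 3.53-fold that of WT in M and 4.94-fold in BM. Its RPFs passed the filter only through the counts in M and in BM. Exons of Rhno1, Tex52 and Gm44596 overlap 526 noncoding bases of its transcript.

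Counted over the members, B alone at day 4 raised RPFs of 6 of the 8 tested, Ccna2, Ccnb1, Ccnb2, Cdk1, Cdc20 and Plk1, by log2 changes of 1.05 to 1.83, while 6.21% of all genes tested were called higher. The RNA of 1 of 8, Cdc20, was called higher (log2 1.00 ± 0.30, adjusted p = 0.0760), against 4.41% of all genes. TE was called for 0 of 7, with 0.0293% of all genes called higher by edgeR and 290 of 10237 genes at an unadjusted p under 0.05 in either direction, and DESeq2 also called 0 members. Of the 6 called for RPFs, Ccna2, Ccnb1, Ccnb2 and Plk1 had 4 to 12 RPF counts per WT mouse and passed the filter through their counts in B. The RPF count was 6 of 10 without the filter and 4 with DESeq2. It rested on few mice: it was 2 without WT mouse 1, 3 without WT mouse 2, B mouse 2 or B mouse 3, and 0 when all 24 mice shared 1 fit. The RNA call of Cdc20 was lost in that fit, with DESeq2 and without any of WT mice 1, 2 and 3 or B mice 2 and 3.

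M at day 4 raised RPFs of all 9 members tested, with a median log2 change of 3.68, against 18.5% of all genes called higher and a median of 0.01. RNA rose for 7 of 9, with a median of 1.16 and a background of 13.5%, Plk1 and Foxm1 being the exceptions. TE rose for 6 of 9, Ccna2, Ccnb1, Ccnb2, Cdc20, Plk1 and Foxm1, with a median of 2.69 (2.18 with Foxm1 at its bound) and a background of 0.884%. Foxm1 passed the filter for RPFs and TE only through its RPF counts in M. The RNA count was 4 without WT mouse 1, and in the fit of all 24 mice, which share 1 estimate of the spread, the RNA count was 4 and the TE count 0.

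BM at day 4 raised RPFs of 10 of 10 members (26.2% of all genes called higher), RNA of 10 of 10 (21.3%) and TE of 7 of 10 (1.71%). Cdc25c had 1 RPF count and 0 RNA counts over the 3 WT mice, and Foxm1 had 3 RPF counts. Cdc25c and the RPFs of Foxm1 passed the filter only through their counts in BM. With 0 RNA counts in WT, the TE change of Cdc25c could not be estimated. The median log2 change was 6.22 for RPFs, 3.08 for RNA and 2.89 for TE, and with Foxm1 and Cdc25c at their bound, or left out where none could be given, 5.69 for RPFs and 2.73 for TE. Medians over all genes tested were between -0.01 and 0.01. The TE calls were the 6 of M and Aurka. Without WT mouse 3 the TE count was 4, and in the fit of all 24 mice it was 4. WT mice were shared by these comparisons, so the calls of B, M and BM are not independent of one another.

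**Figure D2:**
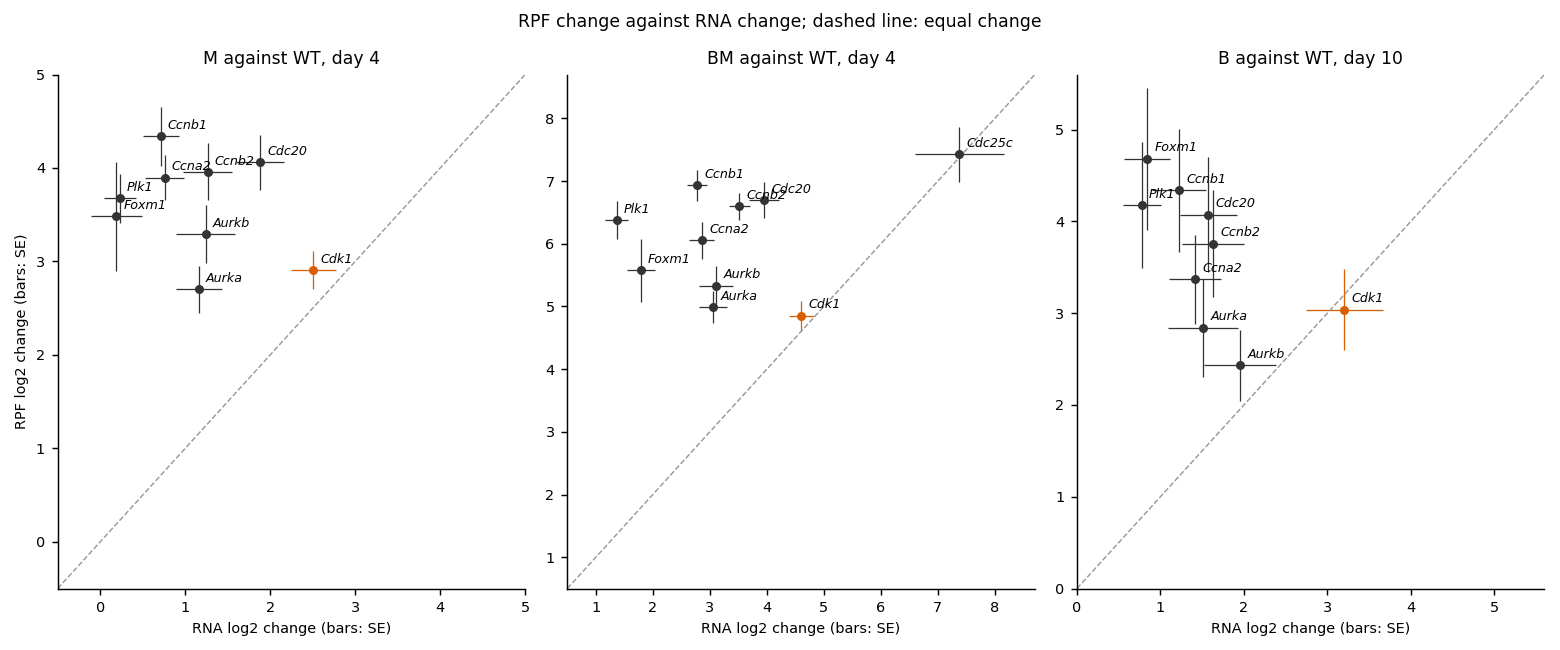
RPF log2 change (vertical axis) against RNA log2 change (horizontal axis) of each member tested, with standard errors as bars, for M and BM at day 4 and B at day 10, each against WT. On the dashed line both change equally. Cdk1 (orange) and, in BM, Cdc25c lie near the line, and the other members lie above it. The position of Cdc25c depends on WT groups with 1 RPF count and 0 RNA counts.

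Adding β-catenin to MYC was read from BM against M at day 4. RPFs of 10 of 10 members rose (18.8% of all genes called higher), by log2 changes of 1.94 for Cdk1 to 3.17 for Cdc25c, and RNA of 10 of 10 rose (14.6%), by 1.14 for Plk1 to 2.98 for Cdc25c. TE was called for 0 of 10 (0.0377%; 540 of 10608 genes at an unadjusted p under 0.05), and its median change was 0.37. Plk1 had the largest TE difference, 1.55 ± 0.32 (adjusted p = 0.129), and its 3 BM mice lay above its 3 M mice. With the mouse as a block 3 members were called, Plk1 at 1.54 ± 0.17 (adjusted p = 5.06e-07), Cdc20 at 0.55 ± 0.15 (adjusted p = 0.0557) and Ccnb1 at 0.50 ± 0.13 (adjusted p = 0.0339), against 1.37% of all genes. DESeq2 called 1 member, as did edgeR without BM mouse 1 or without the filter.

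BM against B at day 4 gives the change with MYC added to β-catenin. All 10 members rose in RPFs (23.2% of all genes called higher), by log2 changes of 3.81 for Cdk1 to 5.21 for Ccnb2 outside Cdc25c, and all 10 rose in RNA (18.1%), by 1.33 for Plk1 to 3.77 for Cdk1 outside Cdc25c. Cdc25c had 5 RPF counts and 3 RNA counts in all B mice together, and its RPF ratio was 51.8 (exact 95% interval 22.0 to 160.5), or 28.8 with B at 3 counts a library. TE rose for 6 of 10 (1.05%), the 3 cyclins, Cdc20, Plk1 and Foxm1, by 1.77 to 3.21. The TE difference of Cdk1 was 0.02 ± 0.51. With the mouse as a block, Aurka at 1.57 ± 0.28 (adjusted p = 0.000522) and Aurkb at 1.31 ± 0.35 (adjusted p = 0.0275) were called as well. The TE count was 3 without B mouse 1, B mouse 2 or BM mouse 3, 2 without B mouse 3, and 1 in the fit of all 24 mice.

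**Figure D3:**
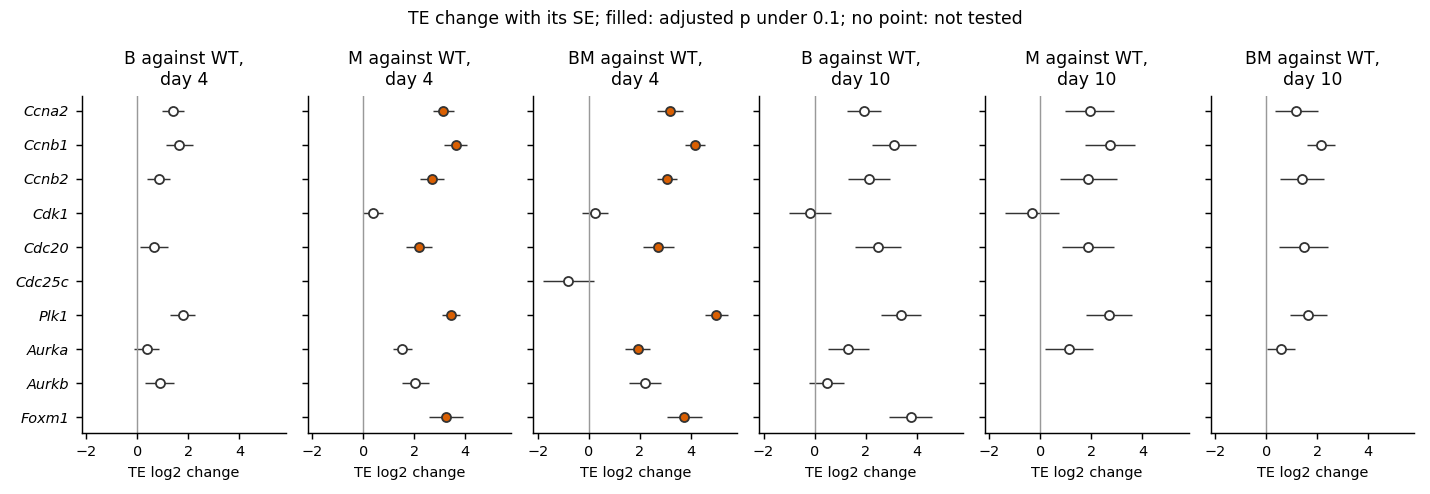
TE log2 change with its standard error for each member (rows) in B, M and BM against WT at day 4 and day 10 (panels). Filled points passed an adjusted p of 0.1, open points did not, and a missing point means that the gene had too few counts. At day 4, filled points appear in M and BM only, and Cdk1 lies between -0.34 and 0.39 in the 4 panels in which it was tested.

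Each member's TE was also ranked among all genes of a group, with RPFs per coding kilobase divided by RNA TPM, a measure of RNA abundance per length, for genes with at least 10 counts of each kind in the group. In WT at day 4, Plk1 stood at percentile 0.411 of 11434 genes, Ccna2 at 1.43, Ccnb1 at 1.44 and Ccnb2 at 3.05. Cdc20, Aurkb and Aurka stood at 16.0 to 17.1, and Cdk1 at 86.2. In BM at day 4 Plk1 stood at 68.6, Ccna2 at 48.3, Ccnb1 at 76.7, Ccnb2 at 61.3, Cdc20 at 92.4 and Cdk1 at 93.6. Foxm1 stayed low, at 11.4 in M and 19.8 in BM. The rank of Cdk1 was 86.2 to 96.7 in all 8 groups, while in BM at day 4 every member except Foxm1 stood at 48.3 or above.

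**Figure D4:**
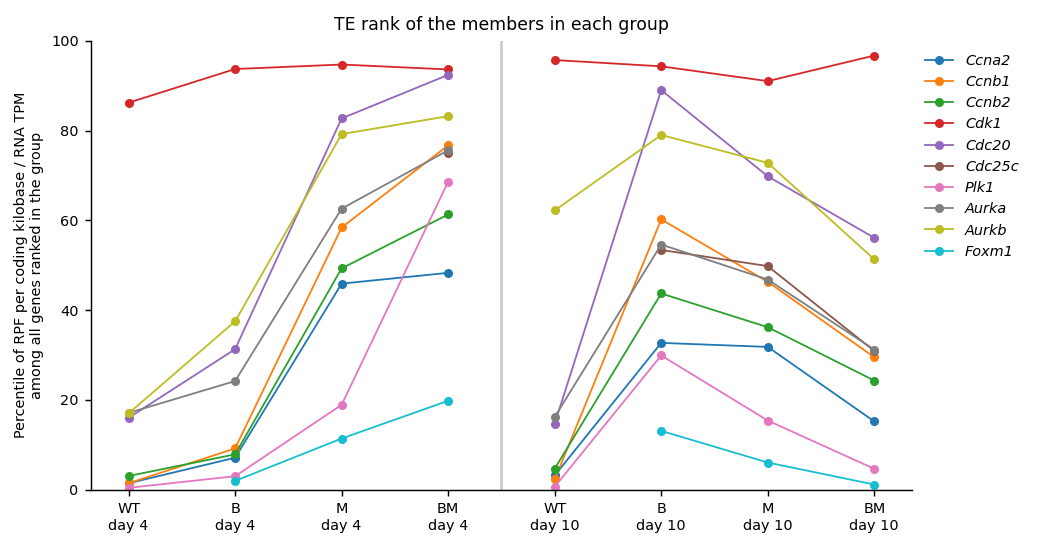
Percentile of each member's TE among all genes ranked in the group, from RPFs per coding kilobase over RNA TPM summed over 3 mice, for WT, B, M and BM at day 4 (left) and day 10 (right). Lines join the values of 1 gene and carry no order in time. Cdk1 lies at 86.2 or above throughout, and Plk1 goes from 0.411 in WT to 68.6 in BM at day 4. Groups with too few counts have no point.

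Ratios between partners also differed by genotype. Per coding kilobase, the RPF level of Ccnb1 relative to Cdk1 at day 4 (SD, n = 3) was 0.235 ± 0.0415 in WT mice, 0.360 ± 0.116 in B mice, 0.604 ± 0.120 in M mice and 0.963 ± 0.0132 in BM mice, and only WT and B overlapped among neighbours. The ratio of Cdc20 to Cdk1 was 0.280 ± 0.0696 in WT and 1.00 ± 0.0360 in BM. RNA went the other way: the ratio of TPM of Ccnb1 to Cdk1 was 5.30 in WT and 1.72 in BM. In contrast, the ratio of Aurkb to Aurka RPFs per kilobase was 0.734 ± 0.298 in WT and 0.859 ± 0.0272 in BM, which overlapped, and that of Ccnb2 to Ccnb1 was 0.826 ± 0.437 and 0.611 ± 0.0845, which also overlapped.

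At day 10 the summed RPFs of B, M and BM overlapped with one another, and these genotypes were not tested against each other. Summed over the 10 members, RPFs were 9.97, 22.2 and 8.77 CPM in WT, 109, 92.5 and 291 CPM in B, 54.7, 43.9 and 213 CPM in M and 93.1, 33.8 and 33.8 CPM in BM. Single mice stood apart in all 4 genotypes: mouse 2 of WT, mouse 3 of B, mouse 3 of M and mouse 1 of BM were the highest of their group. Mouse 2 of WT, which enters every comparison with WT at day 10, had the highest RPF level of its group for each member except Foxm1. All 3 oncogene groups lay above WT, and every mouse at day 10 lay below every BM mouse at day 4.

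B at day 10 raised RPFs of all 9 members tested (13.1% of all genes called higher), by log2 changes of 2.43 for Aurkb to 4.34 for Ccnb1 outside Foxm1, and RNA of 9 of 9 (8.14%), by 0.78 for Plk1 to 3.20 for Cdk1. Cdc20 RPFs, for example, were 1.14, 3.58 and 1.44 CPM in WT and 19.8, 18.7 and 65.3 CPM in B, and Plk1 RPFs were 0.525, 1.64 and 0.361 CPM in WT and 10.7, 6.91 and 28.9 CPM in B. Neither gene overlapped between the groups. Foxm1 had 2, 0 and 0 counts in WT and 18, 22 and 44 in B, a ratio of 29.8 (exact 95% interval 7.998 to 250.1) or of 6.62 with WT at 3 counts, and Cdc25c had 2, 2 and 1 in WT and 26, 8 and 52 in B, a ratio of 12.2 (5.03 to 38.5) or of 6.78 with WT at 3 counts. The median RPF change was 3.76, and 3.37 with Foxm1 at its bound. Foxm1 passed the filter for RPFs only through its counts in B. TE was called for 0 of 9 (0.0282% of all genes; 558 of 10632 at an unadjusted p under 0.05; DESeq2 called 1 member) although its median change was 2.12 (1.94 with Foxm1 at its bound). With the mouse as a block, 7 of 9 were called, against 1.32% of all genes: Ccnb1 at 3.01 ± 0.31 (adjusted p = 7.96e-07), Plk1 at 3.24 ± 0.46 (adjusted p = 9.93e-05), Cdc20, Ccna2, Ccnb2, Foxm1 and Aurka. Cdk1, at -0.22 ± 0.37, and Aurkb, at 0.45 ± 0.50, were not. The RNA count was 5 without WT mouse 1, and the unblocked TE count was 2 without B mouse 3. In B at day 10 summed RPF levels of the hepatocyte markers were 35917 to 39476 CPM (68067 to 87375 CPM in WT), lower in every mouse, as was the stellate list at 421 to 685 CPM (756 to 912 CPM). The neutrophil list, at 12.9 to 34.0 CPM (5.07 to 12.2 CPM), was higher in every mouse. The other 5 lists overlapped, among them the erythroid list at 563 to 833 CPM (429 to 577 CPM) and the T and B cell list at 37.5 to 53.8 CPM (25.8 to 40.1 CPM). The part of these lists in the result was not tested.

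M at day 10 raised RPFs of 8 of 8 members tested (10.6% of all genes called higher), by log2 changes of 2.34 to 3.48, and RNA of 3 of 8, Cdk1, Cdc20 and Aurka (8.53%). The RPF count was 1 without WT mouse 1 or without WT mouse 3. The RNA count was 1 without WT mouse 1, WT mouse 3 or M mouse 3, and 5 without M mouse 2. TE was called for 0 of 7 (0% of all genes; 334 of 10453 at an unadjusted p under 0.05; DESeq2 also called 0 members), and 1 member was called without M mouse 3. With the mouse as a block it was called for 3, Ccnb1 at 2.58 ± 0.44, Plk1 at 2.57 ± 0.53 and Cdc20 at 1.83 ± 0.36, against 0.268% of all genes. Mouse 3 of M had Cdc20 RPFs of 45.4 CPM beside 12.4 and 10.1 CPM in the other two. RPFs of Foxm1 and Cdc25c did not pass the filter on low counts over the WT and M libraries and were not tested. Foxm1 had 9, 9 and 25 counts in M, a ratio to WT of 15.75 (exact 95% interval 4.10 to 134) or of 3.5 with WT at 3 counts, and Cdc25c had 7, 2 and 35, a ratio of 6.45 (2.56 to 20.8) or of 3.58. The hepatocyte markers summed to 41717 to 43736 CPM in M, and the endothelial, stellate and erythroid lists were lower in every M mouse than in every WT mouse, while the other 4 lists overlapped. Their part in the result was not tested.

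BM at day 10 kept higher RPFs than WT for 6 of the 8 members tested (24.5% of all genes called higher), Ccnb1, Ccnb2, Cdk1, Cdc20, Plk1 and Aurka, by log2 changes of 1.11 to 2.86, and of these Cdc20 overlapped between the groups. RNA was higher for 3 of 7, Ccnb1, Ccnb2 and Cdc20 (22.9%), and TE was called for 0 of 6 (0.115%; 1042 of 10431 genes at an unadjusted p under 0.05; DESeq2 called 1). With the mouse as a block Ccnb1 alone was called for TE, at 2.12 ± 0.42 (adjusted p = 0.0340), against 2.38% of all genes. Ccnb1 RPFs were 0.875, 2.86 and 0.841 CPM in WT and 16.2, 7.22 and 10.2 CPM in BM. Those of Ccna2 were 1.05, 2.56 and 0.601 CPM in WT and 9.28, 2.41 and 1.57 CPM in BM, which overlapped (log2 change 1.65 ± 0.75, adjusted p = 0.120). The RPF count was 2 without WT mouse 1 and 3 without WT mouse 3, the RNA count was 1 without WT mouse 1, and 1 member was called for TE without BM mouse 1. Foxm1 had 11, 2 and 2 RPF counts in BM, a ratio to WT of 5.25 (exact 95% interval 1.22 to 47.3) or of 1.17 with WT at 3 counts, and Cdc25c had 30, 5 and 3, a ratio of 5.32 (2.09 to 17.3) or of 2.95. The hepatocyte markers summed to 31415 to 44506 CPM in BM, against 68067 to 87375 CPM in WT. Alb was lower in every BM mouse, at 15110 to 18823 against 46811 to 62478 CPM, whereas Cps1, at 7660 to 20605 against 6827 to 7880 CPM, overlapped. The Kupffer list, at 607.5 to 659.7 CPM against 363 to 524 CPM in WT, and the T and B cell list, at 41.2 to 42.8 against 25.8 to 40.1 CPM, were higher in every BM mouse, the stellate list was lower and the other 4 lists overlapped. Of the leading markers of the 2 higher lists, Clec4f (200.8 to 240.8 against 196.8 to 280 CPM) and Ptprc (35.69 to 38.24 against 23.52 to 38.26 CPM) overlapped. Cd5l (331.8 to 375.1 against 134.1 to 188 CPM) and Cd3e (1.57 to 5.59 against 0 to 0.612 CPM) were higher in every BM mouse. The part of these lists and markers in the result was not tested.

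Between day 4 and day 10 all 10 members fell in BM. RPFs fell by log2 values between 3.06 for Cdk1 and 3.99 for Foxm1 (22.6% of all genes called lower), and RNA of all 10 fell by between 0.89 for Plk1 and 3.52 for Cdk1 (20.9%). Days did not overlap for any member on either scale. TE was called lower for 1 of 10, Plk1, which fell by 2.78 ± 0.55 on the log2 scale (adjusted p = 0.0829; 0.234% of all genes), and for 4 with the mouse as a block, Plk1, Foxm1, Ccnb1 and Aurka (1.68%). The TE count was 7 without BM mouse 1 of day 10, and 0 without any other mouse of either day. TE of Plk1 was 1.91 to 2.19 in BM at day 4 and 0.687, 0.149 and 0.165 at day 10. That of Cdk1 was 1.82 to 2.20 at day 4 and 2.20, 4.74 and 3.71 at day 10. Its log2 difference of 0.50 ± 0.50 was not called (adjusted p = 0.839), and its RNA counts at day 10 were 33, 8 and 9. In BM the Kupffer list went from 279 to 291 CPM at day 4 to 607.5 to 659.7 CPM at day 10, and the stellate list from 458 to 581 CPM to 697 to 734 CPM. The 2 leading stellate markers moved in opposite directions. Dcn was at 193.3 to 233 CPM at day 4 and 273 to 458.5 CPM at day 10. Reln was at 200.3 to 243.8 CPM at day 4 and 92.9 to 114.4 CPM at day 10. The T and B cell and neutrophil lists were also higher in every mouse at day 10. Of the 2 leading neutrophil markers, S100a9 was at 1.72 to 2.69 CPM at day 4 and 7.45 to 11.7 CPM at day 10. Ly6g was at 2.08 to 2.845 CPM and at 0.826 to 2.09 CPM. The summed hepatocyte markers and the other 3 lists overlapped between the days. Within the hepatocyte sum, Alb was lower at day 10 (15110 to 18823 against 21939 to 26976 CPM). Cps1 was higher (7660 to 20605 against 3128 to 3679 CPM). The part of these lists and markers in the result was not tested.

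For B the days were not tested against each other. Its summed member RPFs were 16.5, 32.9 and 27.2 CPM at day 4 and did not overlap with the 109, 92.5 and 291 CPM of day 10. In WT and M no member was called between the days. In WT, 0 of 3 members tested were called for RPFs (2.17% of all genes called higher), 0 of 7 for RNA (1.23% called lower) and 0 of 2 for TE (0.00982% called lower). DESeq2 called 0 members as well, and 1755 of 10899 genes for RPFs, 1281 of 11026 for RNA and 481 of 10187 for TE had an unadjusted p under 0.05. In M, 0 of 9 members were called for RPFs (0.468% of all genes called lower), RNA (0.215% called higher) or TE (0% called lower), where 1530 of 11336, 1073 of 11181 and 375 of 10504 genes had an unadjusted p under 0.05 and DESeq2 again called 0 members. Without mouse 3 of M at day 10, 8 of 9 members were called lower for RPFs and 1 for RNA.

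Whether BM acted differently on the 2 days was tested as an interaction of genotype and day. The effect on RPFs was smaller at day 10 for 9 of 10 members (18.6% of all genes called lower), Foxm1 being the exception at -3.37 ± 1.9 (adjusted p = 0.209), and for RNA of 8 of 10 (16.6%), with Plk1 at -0.77 ± 0.35 (adjusted p = 0.129) and Cdc25c, which had no RNA count in WT, the exceptions. TE was called for 0 of 10 (0.246%; 795 of 10980 genes at an unadjusted p under 0.05; DESeq2 called 1), and for 2 with the mouse as a block (1.21%), Plk1 at -3.32 ± 0.87 (adjusted p = 0.0825) and Aurkb at -2.37 ± 0.60 (adjusted p = 0.0706). The TE count was 4 without BM mouse 1 of day 10. Cdc25c had at most 2 RPF counts in any WT library, so its fitted value of -5.15 ± 1.64 is no bound.

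Other genes of the same machinery were counted in 5 lists, beside 26.2% of all genes called higher for RPFs and 1.71% for TE in BM against WT at day 4. Of 18 APC/C genes, 12 of 18 tested rose in RPFs and 0 in TE in BM at day 4, with a median RPF log2 change of 0.52. DESeq2 and the fit with the mouse as a block (3.77% of all genes) each called 1 of the 18 for TE, Ube2c. Of 12 genes of the DREAM and MMB complexes, which repress and activate cell cycle promoters, 5 of 11 rose in RPFs and 0 in TE, with a median of 0.40. Of 15 genes that control CDK1, 10 of 14 rose in RPFs with a median of 1.04 and 2 of 13 rose in TE. Those were Mastl, the Greatwall kinase (TE log2 change 3.39 ± 0.63, adjusted p = 0.00885, with 1 to 4 RPF counts in WT), and Cks1b, a small subunit of CDK complexes (1.68 ± 0.31, adjusted p = 0.00885). The RNA of Cks1b changed by 0.06 ± 0.19 in BM (adjusted p = 0.835), and its RPFs rose by 1.75 ± 0.22.

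Partners of Aurora and Polo kinases rose in 8 of 11 genes for RPFs, with a median of 3.73, and fell in 1, and 1 of 11 rose in TE: Tpx2, the activator of Aurora A at the spindle (3.69 ± 0.54, adjusted p = 0.00138). Substrates of the APC/C and genes of the spindle checkpoint rose in 15 of 18 for RPFs (26.2% of all genes) and 8 of 18 for TE (1.71%), with medians of 5.00 and 1.97. The kinesin Kif11 had 12 to 16 RPF counts in WT and 860 to 1450 in BM and rose by 3.16 ± 0.36 in TE (adjusted p = 0.000139). Kif20a rose by 3.36 ± 0.50, Ect2 by 3.26 ± 0.39, Prc1 by 3.47 ± 0.58 and Kif23 by 2.93 ± 0.37 in TE, all of them factors of cytokinesis. Kif23 RNA changed by 0.48 ± 0.22 in BM (adjusted p = 0.101), and its RPFs rose by 3.43 ± 0.27.

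In M at day 4, TE rose for 7 of 18 APC/C substrates and checkpoint genes, 2 of 11 CDK1 control genes, 1 of 11 Aurora and Polo partners, 0 of 17 APC/C genes and 0 of 11 DREAM and MMB genes, beside 0.884% of all genes. With DESeq2, and with the mouse as a block, 1 of the 17 APC/C genes was called, Ube2c. In the fit with the mouse as a block, TE rose for 21 of 71 genes of the 5 lists in BM at day 4 (3.77% of all genes), against 11 without it, and for 15 of 68 in M (1.75%), against 10. At day 10 the quasi-likelihood test without the block called TE for 0 of 68 list genes in B, 0 of 65 in M and 0 of 60 in BM (0.0282%, 0% and 0.115% of all genes called higher). DESeq2 also called 0, and 13, 4 and 3 had an unadjusted p under 0.05. The blocked fit called TE higher for 11 in B, 9 of them APC/C substrates and checkpoint genes (1.32% of all genes), for 3 in M, Tpx2, Kif11 and Prc1 (0.268%), and for 2 in BM, Cep192 and Ect2 (2.38%). RPFs of the APC/C substrates and checkpoint genes were called higher for 12 of 18 in B (13.1% of all genes), 10 of 18 in M (10.6%) and 7 of 16 in BM (24.5%).

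Across the 24 mice, log2 RPF CPM of the members rose and fell together, with a Pearson r of 0.922 to 0.992 over the 45 pairs (median 0.974). For RNA the r was 0.756 to 0.978 (median 0.914). The non-members most like their mean RPF pattern were Tacc3 (r = 0.995), Kif20a (0.993), Birc5 (0.992), Iqgap3 (0.991) and Kif11 (0.989). These correlations describe 8 groups with large differences, and the mice of a group share genotype and day.

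The RNA values rest on all transcripts of a gene, whereas RPFs were counted on 1. All RNA counts of Ccnb2, Cdc20, Cdc25c, Plk1 and Foxm1 fell on that transcript. For the others the share was 39.2% (Cdk1) to 65.4% (Ccna2), and for Ccna2 it was 50.0% in WT and 70.7% in BM at day 4. With RNA of that transcript alone, TE was called for 6 members in M and 6 in BM at day 4.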

How the data were processed

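Each of 24 mouse livers gave 1 RPF library and 1 library of cytoplasmic RNA. The deposited RPF counts, made by the authors with cutadapt 1.18, BBmap and deduplication by UMI-tools, are whole counts on the coding sequence of 1 transcript a gene, without 30 codons at its ends. The deposited RNA expected counts and TPM were made by the authors with Bowtie2 2.3.5.1 and RSEM 1.3.3, and expected counts were summed per gene and rounded. Whether RNA counting used strand is not given in the sources used here.

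Groups came from the labels. Comparisons were fitted across all genes with edgeR 4.0.16 (quasi-likelihood test, TMM, the filterByExpr filter with a minimum count of 10 and a minimum total of 15, Benjamini-Hochberg adjustment, threshold 0.1), on the mice compared, and TE as the interaction of library kind and group. Scripts were tested on simulated data. RPF and RNA of a mouse deviated together in 24 of 24 mice (lowest r 0.243), and the labels name 1 mouse for both, so the fit with mouse as a block is given where it changes a call. Alternatives were RLE size factors, no filter, DESeq2 1.42.0, the block, all 24 mice, RNA of the RPF transcript alone and leaving out each mouse. The members and lists were chosen with earlier results of these data known. Genes named outside the members are those of the lists called for TE in M or BM at day 4, at most 5 a list, and the 5 most like the members' mean.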

Additional observations from a re-analysis of the deposited data

Results flagged for a closer look

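The effect of BM against WT differed between day 10 and day 4 in an interaction test for 9 members in RPFs and 8 in RNA, which is why they are listed here. For RPFs the difference (day 10 minus day 4, log2) was -4.37 for Ccna2, -4.06 for Ccnb1, -4.29 for Ccnb2, -3.36 for Cdk1, -4.26 for Cdc20, -5.15 for Cdc25c, -4.08 for Plk1, -3.87 for Aurka and -4.39 for Aurkb. That of Cdc25c is a fitted value against WT libraries with at most 2 RPF counts and is no bound. For RNA it was -2.40 for Ccna2, -2.08 for Ccnb1, -2.67 for Ccnb2, -3.38 for Cdk1, -3.04 for Cdc20, -2.57 for Aurka, -1.97 for Aurkb and -1.36 for Foxm1. All are smaller effects at day 10, and the cause was not tested.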

How the results depend on the processing

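Counts of members called are given against those in the report. In the fit of all 24 mice they were 0 for RPFs and RNA of B at day 4, 4 for RNA and 0 for TE of M at day 4, 4 for TE of BM at day 4, 1 for TE of BM against B, 2 for TE of B at day 10, 5 for RNA of M at day 10 and 2 for TE of BM between the days. With DESeq2 they were 4 for RPFs and 0 for RNA of B at day 4, 3 for TE of BM between the days, and 1 for TE of BM against M, B at day 10, BM at day 10 and the BM effect between the days. Without the filter they were 1 for TE of BM against M, 8 for RNA of M at day 10 and 5 for RNA of BM at day 10. With the replicate block they were 0 for RNA of B at day 4, and for TE, where the pairing is by mouse, 3 for BM against M, 7 for B at day 10, 3 for M at day 10, 1 for BM at day 10, 4 for BM between the days and 2 for the BM effect between the days. For RPFs and RNA alone the block is only a shared number. The cause of these changes was not tested.

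Leaving out 1 mouse at a time, counts ran from 2 to 7 (RPF) and 0 to 1 (RNA) for B at day 4, 4 to 7 (RNA) and 4 to 5 (TE) for M at day 4, 4 to 8 (TE) for BM at day 4, 0 to 1 (TE) for BM against M, 2 to 6 (TE) for BM against B, 5 to 8 (RNA) and 0 to 2 (TE) for B at day 10, 1 to 8 (RPF), 1 to 5 (RNA) and 0 to 1 (TE) for M at day 10, 2 to 7 (RPF), 1 to 3 (RNA) and 0 to 1 (TE) for BM at day 10, 0 to 8 (RPF) and 0 to 1 (RNA) for M between the days, and 0 to 7 (TE) for BM between the days and 0 to 4 (TE) for its effect between the days.

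Among uncalled log2 changes the sign turned when 1 mouse was left out. For RNA of B at day 4 the values then ran from -0.391 to 0.0518 for Ccna2, from -0.257 to 0.260 for Plk1, from -0.243 to 0.308 for Aurkb and from -0.359 to 0.0559 for Foxm1. They ran from -0.0305 to 0.390 for Foxm1 RNA in M at day 4, from -0.109 to 0.468 for Cdk1 TE and from -1.28 to 0.988 for Cdc25c TE in BM at day 4, and from -0.472 to 0.0415 for Cdk1 TE in B at day 10. Cdc25c TE in BM at day 4 was 1.07 with DESeq2. WT had 0 RNA counts of Cdc25c, so none of its TE values in that comparison is an estimate. Low counts in WT limit the precision of every fold against it.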
